A study of Mus musculus with 40 samples.

Results

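Cardiac fibroblasts in which Cre recombinase had targeted the gene of the kinase TAK1 were compared with control fibroblasts after both had been stimulated with IL-1β. The comparison uses the 4 libraries of iCre fibroblasts with IL-1β and the 4 libraries of LacZ fibroblasts with IL-1β, that is 8 of the 40 libraries of the series, chosen by their labels and paired by replicate number 1 to 4. Gene expression was measured by sequencing of polyadenylated RNA, and values are raw read counts per gene. Of 55414 genes in the table, 25210 had at least 10 counts over the 40 libraries and were tested.

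All 8 libraries came from fibroblasts of the hearts of naïve adult TAK1fl/fl mice on the C57BL/6J background, in which loxP sites flank exon 2 of Map3k7, the gene for TAK1. The cells were cultured in medium with serum, an insulin supplement and bFGF and used at passage 1. They were transduced for 48 h with an adenovirus that expresses, from the CMV promoter, Cre recombinase (iCre) or the control protein LacZ. Control cells thus carried the floxed alleles and a virus too, and loss of TAK1 depends on how many cells the virus reached. After a rest and serum starvation, IL-1β (15 ng/ml) was given for 24 h. Other fibroblasts of the series received no ligand (CTRL), TNFα, TGFβ or bFGF. The study describes the replicates as biological and male, and whether each is the cells of 1 mouse, of pooled mice or of a separate culture is not given in the sources used here, so p-values measure the spread between these samples.

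The 8 libraries held 28888257 to 55947432 counts on genes. The lowest iCre library, replicate 4 with 36573605 counts, lay within the range of the 4 LacZ libraries, and the other 3 iCre libraries were deeper than all of them. Libraries of a group had mean correlations of log2 CPM with the other libraries of their own group of 0.968 to 0.987. Replicate 2 had the lowest value in both groups, 0.976 in LacZ and 0.968 in iCre fibroblasts.

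IL-1β binds the receptor IL1R1 and its partner IL1RAP, which recruit MYD88 and the IRAK kinases. These activate the ubiquitin ligase TRAF6, and TAK1 is drawn to the ubiquitin chains by its binding proteins TAB1, TAB2 and TAB3. TAK1 then phosphorylates the IκB kinase complex, which frees NF-κB, and the kinases upstream of JNK and p38, which act on AP-1 factors. In fibroblasts of the injured heart, this route is known for the release of chemokines that call in neutrophils and monocytes, and of enzymes that degrade matrix.

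The exon that Cre removes is shown because the whole perturbation rests on it. It is exon 2 of 17 in transcript Map3k7-201 (chr4:31974823-31974933, GRCm38, plus strand), which is coding sequence of 111 bases, or 37 codons, and 1.92% of the 5773 bases of the transcript. It is printed 5′ to 3′ from the reference genome, with capitals for the whole deleted exon.
Map3k7 exon 2: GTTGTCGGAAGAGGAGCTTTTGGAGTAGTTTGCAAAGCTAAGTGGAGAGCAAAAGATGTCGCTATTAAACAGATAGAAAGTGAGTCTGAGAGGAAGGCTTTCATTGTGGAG

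Reads were counted over all exons of Map3k7 (ENSMUSG00000028284, chr4:31964097-32023467), so the count includes transcripts that lack exon 2 and does not by itself measure the deletion. After scaling to counts per 1000000 (CPM, with TMM normalization over the 40 libraries), Map3k7 was at 237, 199, 211 and 233 CPM in LacZ libraries and at 129, 124, 122 and 129.9 CPM in iCre libraries, in the order of replicates 1 to 4, which is kept below. All 4 iCre libraries lay under all 4 LacZ libraries. The log2 fold change of iCre over LacZ with its standard error was −0.81 ± 0.07 (adjusted p = 9.96e-08) in edgeR's quasi-likelihood test, fitted with the replicate number as a block, the test behind every adjusted p-value given here.

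In iCre fibroblasts with IL-1β, most of the chemokines that attract neutrophils, the acute-phase and complement genes, the genes of the immunoproteasome and the enzymes of cholesterol synthesis were lower than in LacZ fibroblasts, as was inducible nitric oxide synthase. Of 31 genes of axon guidance and synapses, Nptx1, Sema7a and 16 others were higher, and 9 of the 31 were so without the block. The MAP kinase phosphatases Dusp4 and Dusp5 were higher, whereas Dusp8 and Dusp16 were lower. A gene is said to be called when its adjusted p was at most 0.05, and over all genes tested 3684 (14.6%) were called higher and 3754 (14.9%) lower in iCre fibroblasts, with a median log2 fold change of 0.04. A log2 fold change of 1 or more in size was seen in 700 of the calls higher and 1032 of the calls lower. Without the replicate block, 1799 genes (7.14%) were called higher and 2265 (8.98%) lower. The change also followed the GC content of the transcripts, as described below, and in a fit that corrects for this 2997 (12%) of 24970 genes were called higher and 2691 (10.8%) lower. Where a named gene lost or gained its call with IL-1β without the block, after GC correction or when the pair of libraries of 1 replicate number was left out, this is written beside its p-value.

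**Figure D1:**
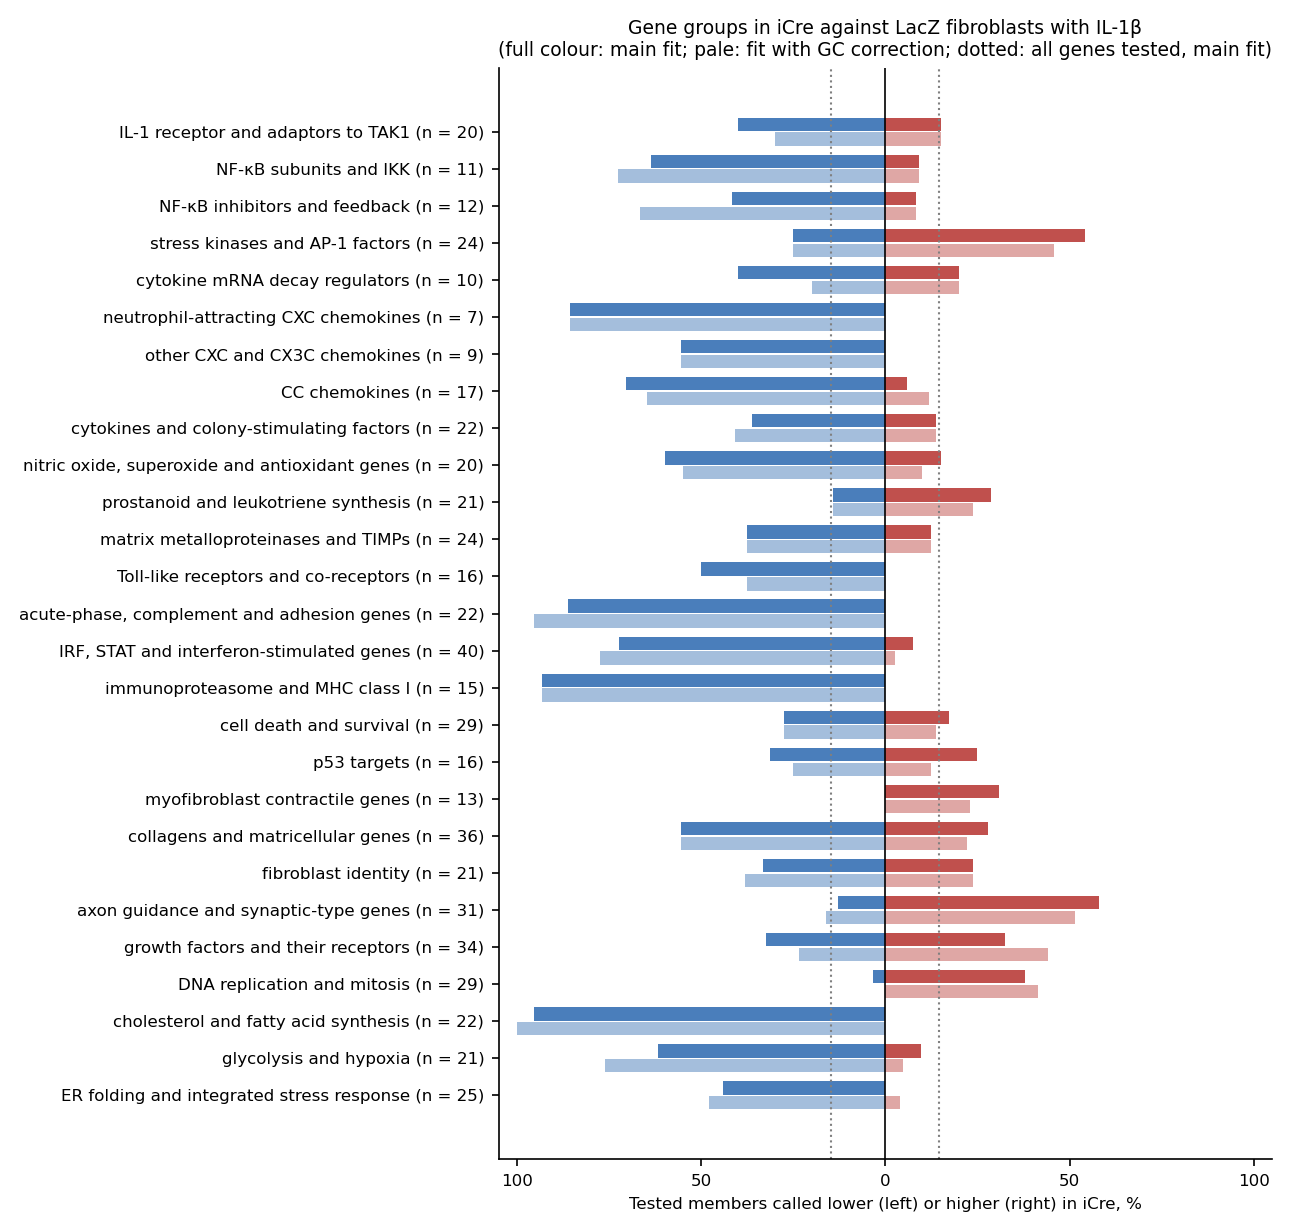
Share of the tested members of each gene group called lower (bars to the left) or higher (bars to the right) in iCre than in LacZ fibroblasts with IL-1β, in percent, with full colour for the fit with the replicate block, pale colour for the fit that also corrects for GC content and dotted lines for the shares over all genes tested (14.9% lower and 14.6% higher). Of the cholesterol genes 21 of 22, and of the neutrophil-attracting chemokines 6 of 7, were called lower.

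Nos2, inducible nitric oxide synthase (ENSMUSG00000020826, chr11:78920787-78960254), was at 205, 362, 373 and 489 CPM in the LacZ and at 7.20, 6.33, 9.12 and 15.2 CPM in the iCre libraries. The highest iCre library, replicate 4, lay far under the lowest LacZ library, replicate 1. The iCre mean was 2.65% of the LacZ mean, and the log2 fold change was −5.27 ± 0.13 (adjusted p = 5.81e-15). In CTRL, Nos2 was at 0.0916 ± 0.0929 CPM in the LacZ and 0.0387 ± 0.0342 CPM in the iCre libraries (mean ± SD, n = 4), so that iCre fibroblasts with IL-1β still lay above both groups without ligand. Nptx1, neuronal pentraxin 1, which gathers glutamate receptors at synapses (ENSMUSG00000025582, chr11:119538719-119547753), showed the opposite. It was at 0.497, 0.896, 1.42 and 1.595 CPM in the LacZ and at 56.5, 174, 143 and 177 CPM in the iCre libraries, a log2 fold change of 6.96 ± 0.13 (adjusted p = 8.54e-17), and replicate 1 was the lowest library in both groups.

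**Figure D2:**
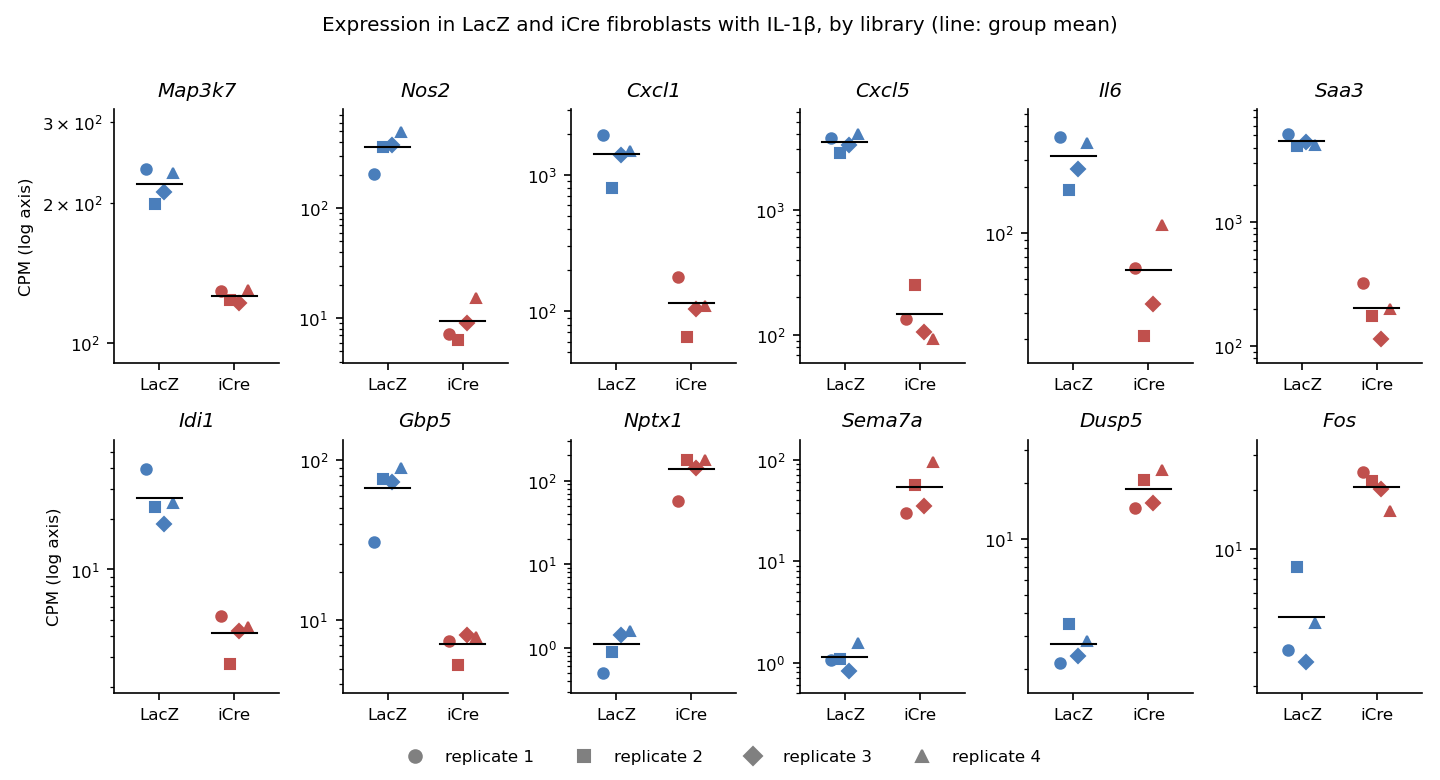
CPM (log axis, a separate scale in each panel) of 12 genes in the 4 LacZ and the 4 iCre libraries with IL-1β, with 1 symbol per replicate number and a line at the group mean. In each of the 12 panels the LacZ and iCre libraries do not overlap, with Map3k7, Nos2, Cxcl1, Cxcl5, Il6, Saa3, Idi1 and Gbp5 lower and Nptx1, Sema7a, Dusp5 and Fos higher in iCre fibroblasts.

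Genes between the IL-1 receptor and TAK1 were called in either direction. Of 20 genes of this list, 3 were higher, 8 lower and 9 not called, with a median log2 fold change of −0.21. After GC correction there were 3 higher and 6 lower, and without the block 1 higher and 3 lower. Without replicate 3, 5 were lower. The receptor Il1r1 was at 412, 276, 304 and 339.6 CPM in the LacZ and 250.3, 234, 224 and 212 CPM in the iCre libraries, without overlap, and its log2 fold change was −0.53 ± 0.09 (adjusted p = 9.33e-05). Its partner Il1rap had overlapping groups and −0.32 ± 0.09 (adjusted p = 0.00754, 0.271 without the block, 0.682 after GC correction, call lost without replicate 3), and after GC correction the direction turned to 0.07. For the adaptor Myd88 (−0.17 ± 0.08, adjusted p = 0.115, 0.00268 after GC correction) and the kinase Irak4 (−0.07 ± 0.10, adjusted p = 0.691) no difference was called, while Traf6 was lower by a small amount (−0.24 ± 0.08, adjusted p = 0.0387, 0.130 without the block, 0.485 after GC correction, call lost without replicate 1, 2, 3 or 4).

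The TAK1-binding proteins did not move together. Tab1 was at 14.6, 15.6, 15.8 and 16.2 CPM in the LacZ and 19.3, 19.4, 19.4 and 20.4 CPM in the iCre libraries, higher by 0.32 ± 0.09 (adjusted p = 0.0106, 0.677 after GC correction, call lost without replicate 3), whereas Tab3 was lower, at −0.48 ± 0.09 (adjusted p = 4.16e-04, 0.799 after GC correction) and Tab2 was not called (−0.19 ± 0.07, adjusted p = 0.0586). The transcript of Tab1 has a GC content of 58.2% and that of Tab3 one of 41.5%, and after correction their log2 fold changes were 0.07 and −0.05. Irak3, the inactive kinase that restrains IL-1 signalling, fell from 79.9, 44.8, 60.8 and 63.4 CPM to 31.3, 15.9, 28.7 and 20.5 CPM, a log2 fold change of −1.40 ± 0.09 (adjusted p = 1.25e-09). The receptor antagonist Il1rn was higher, by 1.31 ± 0.16 (adjusted p = 4.96e-06, 0.171 without the block), with overlapping groups.

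Il1rl1, the receptor for IL-33, shows how much a replicate number can weigh. It was at 1.52, 238, 0.997 and 5.24 CPM in the LacZ and 13.8, 879, 9.27 and 37.9 CPM in the iCre libraries, so that replicate 2 stood far above the other 3 in both groups. Within every pair the iCre library was the higher one, and the log2 fold change was 2.58 ± 0.16 (adjusted p = 5.88e-10, 0.519 without the block).

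Genes of NF-κB itself and of its kinases were mostly lower. Of 11 subunits and kinases, 1 was higher, 7 lower and 3 not called, with a median log2 fold change of −0.46, against 1 higher and 8 lower after GC correction. Rel, the subunit c-Rel, was at 23.9, 20.8, 22.9 and 20.1 CPM in the LacZ and 12.5, 11.6, 13.4 and 14.6 CPM in the iCre libraries (−0.77 ± 0.10, adjusted p = 8.50e-06). Chuk, which encodes IKKα, was at 58.4, 81.1, 57.2 and 61.1 CPM against 31.5, 51.2, 34.5 and 38.7 CPM (−0.75 ± 0.08, adjusted p = 4.93e-07), and Ikbke at 52.4, 65.1, 77.8 and 65.6 CPM against 35.7, 45.4, 42.7 and 38.1 CPM (−0.70 ± 0.08, adjusted p = 1.64e-06). The groups of these 3 genes did not overlap.

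The main subunits changed less. Nfkb1 (p105 and p50) was lower, at −0.35 ± 0.08 (adjusted p = 0.00150, 0.133 after GC correction), Rela (p65) was at −0.14 ± 0.07 (adjusted p = 0.189) and Nfkb2 (p100 and p52) at −0.04 ± 0.08 (adjusted p = 0.787). After GC correction the differences of Rela and Nfkb2 were called, at −0.40 (adjusted p = 2.59e-04) and −0.31 (adjusted p = 0.00604). The exception was Map3k14, the kinase NIK that starts the non-canonical route. It was at 23.01, 22.3, 20.9 and 17.8 CPM in the LacZ and 92.0, 50.3, 62.2 and 69.5 CPM in the iCre libraries, and the groups lay far apart (1.67 ± 0.11, adjusted p = 1.82e-09).

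Several of the inhibitors that NF-κB induces against itself were lower as well. Of 12 genes, 1 was higher, 5 lower and 6 not called, with a median log2 fold change of −0.26, and after GC correction there were 1 higher and 8 lower. Nfkbia was at 166, 176, 148 and 144 CPM in LacZ libraries and at 95.3, 77.2, 73.8 and 81.0 CPM in iCre libraries, a log2 fold change of −0.97 ± 0.08 (adjusted p = 2.65e-08) for the gene of IκBα. The ubiquitin-editing enzyme A20, encoded by Tnfaip3, fell from 141, 120.1, 113 and 119 CPM to 54.3, 24.4, 48.7 and 44.6 CPM (−1.58 ± 0.13, adjusted p = 1.80e-08), and its partner Tnip1 from 164, 140.0, 163 and 159 CPM to 94.5, 68.0, 77.2 and 69.6 CPM (−1.04 ± 0.08, adjusted p = 8.59e-09). Nfkbiz, which encodes the atypical family member IκBζ, was higher, by 0.31 ± 0.08 (adjusted p = 0.00747, 0.0944 without the block, call lost without replicate 3), with overlapping groups.

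The list of stress kinases and AP-1 factors, which also holds phosphatases that switch off MAP kinases, had more genes called higher than lower. Of 24 stress kinase and AP-1 genes, 13 were higher, 6 lower and 5 not called, with a median log2 fold change of 0.47, with 11 higher and 6 lower after GC correction and 9 higher and 4 lower without the block. Dusp5 was at 2.15, 3.47, 2.35 and 2.82 CPM in LacZ libraries and at 14.6, 20.6, 15.6 and 23.3 CPM in iCre libraries, and Dusp4 was at 20.1, 14.3, 19.4 and 21.4 CPM in LacZ libraries and at 77.1, 42.0, 67.9 and 70.8 CPM in iCre libraries. Both are phosphatases of ERK and related kinases, and the log2 fold change was 2.76 ± 0.12 (adjusted p = 1.33e-11) for Dusp5 and 1.74 ± 0.08 (adjusted p = 3.36e-11) for Dusp4, with no overlap between groups. Dusp16, which acts on JNK and p38, was lower instead (−0.59 ± 0.09, adjusted p = 3.97e-05), as was Dusp8 (−1.19 ± 0.23, adjusted p = 5.27e-04, 0.182 without the block).

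Fos was at 3.05, 8.14, 2.67 and 4.21 CPM in the LacZ and 24.8, 22.3, 20.3 and 15.6 CPM in the iCre libraries, higher by 2.26 ± 0.19 (adjusted p = 4.69e-08), and Jun by 0.63 ± 0.08 (adjusted p = 6.84e-06, 0.115 without the block) with overlapping groups. The genes of the kinases p38α and JNK1 went in opposite directions. Mapk14 (p38α) was at 0.20 ± 0.07 (adjusted p = 0.0470, 0.0878 without the block, 0.630 after GC correction, call lost without replicate 1, 3 or 4), and Mapk8 (JNK1), with a transcript of 40.1% GC, was at −0.79 ± 0.09 (adjusted p = 2.60e-06, 0.0657 after GC correction).

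Stretches of promoter are shown for genes whose change the text describes and in which a searched motif was found. They were read from RefSeq promoters on build GRCm38.p6, 250 bases before to 50 bases after each start site, of which the table holds 32851. On both strands, the κB consensus, named here without its letters, matched 8.46% of all these promoters, the AP-1 element TGANTCA 7.81%, the serum response factor site (CArG box, also by name) 1.63% and the interferon-regulatory element TTTCNNTTTC 3.44%. Each line below is 5′ to 3′ on the plus strand, which is the strand of all 6 genes, and ends at the base before the start site, with the letters of every match to any of the 4 motifs in capitals. Within these stretches, Cxcl1 and Il6 hold the κB consensus, Mmp3 the AP-1 element, Mmp13 the interferon-regulatory element and then the AP-1 element, Gbp5 the interferon-regulatory element and then a κB match on the minus strand, and Dusp5 a pair of adjoining CArG boxes.
Cxcl1 (chr5:90891095-90891244): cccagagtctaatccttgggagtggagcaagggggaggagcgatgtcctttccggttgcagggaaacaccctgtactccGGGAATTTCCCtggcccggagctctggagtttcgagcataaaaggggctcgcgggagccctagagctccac
Il6 (chr5:30012964-30013113): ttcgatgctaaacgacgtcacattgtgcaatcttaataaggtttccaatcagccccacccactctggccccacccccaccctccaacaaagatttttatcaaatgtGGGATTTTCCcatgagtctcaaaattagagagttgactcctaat
Mmp3 (chr9:7445672-7445821): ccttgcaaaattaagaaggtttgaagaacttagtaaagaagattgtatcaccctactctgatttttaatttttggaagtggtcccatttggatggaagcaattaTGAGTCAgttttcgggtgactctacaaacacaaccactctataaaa
Mmp13 (chr9:7272364-7272513): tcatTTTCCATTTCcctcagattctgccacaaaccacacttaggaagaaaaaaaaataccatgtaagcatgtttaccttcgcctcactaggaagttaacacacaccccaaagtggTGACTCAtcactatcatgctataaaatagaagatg
Gbp5 (chr3:142496734-142496933): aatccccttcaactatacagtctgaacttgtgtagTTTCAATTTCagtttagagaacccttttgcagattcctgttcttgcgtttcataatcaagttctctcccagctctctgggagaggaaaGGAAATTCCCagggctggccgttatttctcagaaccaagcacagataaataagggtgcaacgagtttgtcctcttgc
Dusp5 (chr19:53528995-53529144): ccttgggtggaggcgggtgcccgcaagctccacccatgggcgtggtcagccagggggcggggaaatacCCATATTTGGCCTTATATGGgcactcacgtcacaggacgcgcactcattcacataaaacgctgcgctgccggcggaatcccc

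The match of Cxcl1 begins 71 bases before the start site, that of Il6 44 bases, and the AP-1 elements of Mmp3 and Mmp13 46 and 35 bases before it. The interferon-regulatory element begins 146 bases before the start site in Mmp13 and 165 bases in Gbp5, the κB match of Gbp5 77 bases and the CArG boxes of Dusp5 82 and 72 bases before it. A κB match was found for 8 of the 10 NF-κB inhibitors with a promoter in the table and for 3 of 6 neutrophil-attracting chemokines. Among all tested genes with a promoter, 13.4% of those called higher, 13.6% of those called lower and 11.4% of those not called had one. The AP-1 element was in 6 of 19 promoters of matrix metalloproteinases and their inhibitors, and the interferon-regulatory element in 18 of 34 promoters of interferon-stimulated and related genes. A match describes these letters only, and binding was not measured.

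Chemokines that attract neutrophils through CXCR2 were the group with the lowest median of those described here. Of 7 genes, 0 were higher, 6 lower and 1 not called, with a median log2 fold change of −3.23, and both other fits gave the same counts. Cxcl5 went from 3703, 2835, 3257 and 3986 CPM in LacZ to 135, 252, 105.5 and 94.2 CPM in the iCre libraries, a log2 fold change of −4.68 ± 0.21 (adjusted p = 1.72e-11). Cxcl1, one of the promoters with a κB match, went from 1969, 804, 1401 and 1501 CPM to 178, 64.3, 104.7 and 109 CPM (−3.67 ± 0.09, adjusted p = 3.24e-15). Cxcl1 was lowest in replicate 2 and highest in replicate 1 in both groups, and Cxcl5 was highest in replicate 2 among the iCre but not among the LacZ libraries.

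Cxcl3 had a log2 fold change of −3.93 ± 0.27 (adjusted p = 3.09e-09) at lower levels, 1.06 to 6.21 CPM in the LacZ and 0.0545 to 0.428 CPM in the iCre libraries. Even so, Cxcl1 and Cxcl5 stayed above their levels in LacZ fibroblasts in CTRL, which were 7.41 ± 0.560 and 24.7 ± 13.1 CPM (mean ± SD, n = 4).

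Of 9 other CXC and CX3C chemokines, 0 were higher, 5 lower and 4 not called, with a median log2 fold change of −0.61, and without the block 0 higher and 2 lower. Cxcl16, a membrane-bound chemokine, was at 439, 222, 357 and 370.5 CPM in the LacZ and 166, 71.4, 89.9 and 121 CPM in the iCre libraries (−1.68 ± 0.09, adjusted p = 8.18e-11). The interferon-induced Cxcl9 had −3.98 ± 0.30 (adjusted p = 1.02e-08), and Cxcl10, at 1.75, 41.6, 28.4 and 73.7 CPM against 3.83, 7.45, 1.67 and 12.9 CPM, had −2.24 ± 0.43 (adjusted p = 4.78e-04, 0.0778 without the block). In replicate 1, unlike the other 3 pairs, Cxcl10 was lower in the LacZ than in the iCre library. Cxcl12, the homeostatic ligand of CXCR4, had overlapping groups and −0.36 ± 0.11 (adjusted p = 0.0172, 0.294 without the block, call lost without replicate 4).

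Of 17 CC chemokines tested, 1 was higher, 12 lower and 4 not called, with a median log2 fold change of −1.57, and without the block 1 higher and 7 lower. The monocyte attractant Ccl2 was at 2209, 1317, 1634 and 1945 CPM in the LacZ and 518, 441, 353 and 703 CPM in the iCre libraries (−1.85 ± 0.11, adjusted p = 4.65e-10), and the T cell attractant Ccl5 at 56.8, 41.5, 62.2 and 114 CPM against 5.65, 8.38, 5.01 and 11.7 CPM (−3.15 ± 0.15, adjusted p = 2.70e-11). Neither gene had overlapping groups. Ccl27a, which has near-identical copies in the genome between which reads may be split, was the member called higher, by 0.91 ± 0.20 (adjusted p = 0.00182), at 1.32 to 1.70 CPM in the LacZ and 2.33 to 3.73 CPM in the iCre libraries.

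Cytokines moved in both directions. Of 22 cytokines and colony-stimulating factors, 3 were higher, 8 lower and 11 not called, with a median log2 fold change of −0.73, and without the block 2 higher and 5 lower. Il6, whose promoter holds a κB match, was at 428, 192, 262 and 392 CPM in the LacZ and 59.1, 21.1, 34.4 and 113 CPM in the iCre libraries (−2.70 ± 0.16, adjusted p = 2.89e-10). Csf3, the granulocyte colony-stimulating factor, was at 28.2, 27.7, 21.9 and 33.1 CPM against 2.84, 5.47, 2.08 and 5.48 CPM (−2.90 ± 0.15, adjusted p = 7.69e-11). The 2 genes had no overlap between groups.

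Il11, Clcf1 and Lif, which signal through the same receptor subunit as Il6, were higher. Il11 was at 2.12, 2.09, 3.13 and 3.86 CPM in LacZ libraries and at 5.403, 13.2, 9.25 and 45.8 CPM in iCre libraries, with replicate 4 well above the other iCre libraries and a log2 fold change of 2.34 ± 0.25 (adjusted p = 8.04e-07). Clcf1 was at 17.6, 20.4, 25.7 and 22.5 CPM against 39.0, 37.0, 48.1 and 63.9 CPM (1.09 ± 0.10, adjusted p = 1.08e-07), and Lif, with overlapping groups, was higher by 0.76 ± 0.11 (adjusted p = 3.96e-05, 0.0561 without the block). The osteoclast factor Tnfsf11 was lower (−1.73 ± 0.21, adjusted p = 3.46e-06, 0.0594 without the block). Il1b itself was at 0 to 0.224 CPM in the LacZ libraries and was not called.

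Acute-phase proteins, complement components and adhesion molecules were mostly lower. Of 22 genes tested, 0 were higher, 19 lower and 3 not called, with a median log2 fold change of −1.11, and after GC correction there were 0 higher and 21 lower. Without the block there were 0 higher and 16 lower, and 12 lower with GC correction and no block. Saa3, the serum amyloid A of extrahepatic cells, fell from 5162, 4115, 4438 and 4184 CPM to 321, 176, 115 and 198 CPM (−4.57 ± 0.15, adjusted p = 3.82e-13). Lcn2, which binds bacterial iron carriers, fell from 3946, 1948, 2849.5 and 3238 CPM to 439, 292, 353 and 573 CPM (−2.87 ± 0.11, adjusted p = 1.45e-12).

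The complement component C3 was at 8299, 6530.4, 6859 and 6219 CPM in the LacZ and 3284, 1842, 2538 and 1926 CPM in the iCre libraries (−1.59 ± 0.10, adjusted p = 4.38e-10), and haptoglobin, Hp, at 276, 269, 276 and 295 CPM against 39.4, 19.5, 14.5 and 30.9 CPM (−3.53 ± 0.16, adjusted p = 1.33e-11). Of the adhesion molecules for leukocytes, Vcam1 was at 2735, 1919, 2167 and 2122 CPM against 1379, 709, 1085 and 1074 CPM (−1.12 ± 0.09, adjusted p = 2.61e-08). Icam1 had overlapping groups and −0.73 ± 0.09 (adjusted p = 4.23e-06, 0.115 without the block).

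Receptors that sense microbes were in part lower. Of 16 Toll-like receptors and co-receptors, 0 were higher, 8 lower and 8 not called, with a median log2 fold change of −0.85, with 0 higher and 6 lower after GC correction. Tlr2 was at 153, 141, 181 and 199.9 CPM in the LacZ and 32.5, 17.5, 24.0 and 22.3 CPM in the iCre libraries (−2.84 ± 0.11, adjusted p = 4.30e-12), and the lipopolysaccharide-binding protein Lbp at 478, 345, 423 and 408 CPM against 154, 62.4, 137 and 81.7 CPM (−2.02 ± 0.12, adjusted p = 4.25e-10). Tlr3, which senses double-stranded RNA, was lower, at −1.88 ± 0.10 (adjusted p = 1.35e-10). Tlr4, with a transcript of 39.4% GC, was at −0.89 ± 0.11 (adjusted p = 2.82e-06, 0.0551 after GC correction).

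Genes of nitric oxide and of the handling of oxygen radicals were mostly lower beside Nos2. Of 20 genes, 3 were higher, 12 lower and 5 not called, with a median log2 fold change of −0.61, and without the block 2 higher and 7 lower. The arginine transporter Slc7a2, which supplies the substrate of NOS2, went from 1324, 793, 1290.2 and 1254 CPM to 294, 129, 218 and 229 CPM (−2.47 ± 0.09, adjusted p = 1.04e-12), and the mitochondrial superoxide dismutase Sod2 from 895, 684, 717 and 754 CPM to 184, 133, 132 and 183 CPM (−2.30 ± 0.09, adjusted p = 1.45e-12). Cybb, the core of the phagocyte NADPH oxidase, was lower, at −2.57 ± 0.28 (adjusted p = 9.62e-07) at 6.06 to 11.99 CPM in LacZ fibroblasts. The antioxidant enzymes Sod1 (0.29 ± 0.08, adjusted p = 0.00758, call lost without replicate 3) and Gpx1 (0.59 ± 0.07, adjusted p = 5.38e-06) were higher, and Gch1, which starts the synthesis of the NOS cofactor, was not called (−0.21 ± 0.12, adjusted p = 0.232).

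Enzymes of prostanoid synthesis were called in either direction. Of 21 genes tested, 6 were higher, 3 lower and 12 not called, with a median log2 fold change of 0.23, and without the block 1 higher and 3 lower. Ptgs2, cyclooxygenase 2, was at 94.4, 191, 128 and 182 CPM in the LacZ and 81.6, 133, 111 and 275 CPM in the iCre libraries and was not called (−0.10 ± 0.12, adjusted p = 0.649, call gained without replicate 4), but after GC correction it was higher, by 0.46 (adjusted p = 0.00924). Ptgs1, cyclooxygenase 1, was at 56.8, 96.6, 85.4 and 96.5 CPM against 116, 144, 233 and 205 CPM (1.02 ± 0.10, adjusted p = 4.45e-07), and the inducible prostaglandin E synthase Ptges was at 0.41 ± 0.12 (adjusted p = 0.0109, 0.280 without the block, 0.136 after GC correction, call lost without replicate 2 or 4).

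The other prostaglandin E synthases were lower. Ptges2 was at 41.5, 43.9, 50.4 and 56.1 CPM in LacZ libraries and at 26.2, 23.1, 24.5 and 28.3 CPM in iCre libraries, a log2 fold change of −0.92 ± 0.08 (adjusted p = 9.00e-08), and Ptges3 had −0.98 ± 0.07 (adjusted p = 9.07e-09). Pla2g4a, the phospholipase that frees arachidonic acid, was lower, at −0.81 ± 0.10 (adjusted p = 2.58e-06), with overlapping groups. Lipids were not measured here.

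Of 24 matrix metalloproteinases and their inhibitors, 3 were higher, 9 lower and 12 not called, with a median log2 fold change of −0.15, and without the block 2 higher and 4 lower. Stromelysin 1, Mmp3, was at 10669.8, 4379.9, 6563 and 8098 CPM in the LacZ and 1807, 1739, 918 and 1049.9 CPM in the iCre libraries (−2.44 ± 0.18, adjusted p = 7.78e-09), and collagenase 3, Mmp13, at 8.87, 25.6, 29.4 and 29.99 CPM against 4.15, 5.14, 5.99 and 8.51 CPM (−1.92 ± 0.15, adjusted p = 1.62e-08). Both had the AP-1 match shown above and no overlap between groups. The gelatinase Mmp9 was not called (0.25 ± 0.21, adjusted p = 0.446, call gained without replicate 3), and the membrane-anchored or stromal members included 1 higher gene, Mmp11 (1.02 ± 0.10, adjusted p = 2.12e-07).

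The inhibitors of these proteases differed among themselves. Timp3, which stays bound to the matrix, was at 659, 171, 328 and 281 CPM in the LacZ and 1777, 377, 1035 and 849 CPM in the iCre libraries, higher in each of the 4 pairs (1.44 ± 0.09, adjusted p = 1.01e-09, 0.0667 without the block). Timp2 was higher by 0.60 ± 0.08 (adjusted p = 1.88e-05) without overlap, and Timp1 lower, at −0.71 ± 0.14 (adjusted p = 6.71e-04, 0.282 without the block) with overlapping groups.

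Regulators of the decay of cytokine mRNA were called in either direction. Of 10 genes, 2 were higher, 4 lower and 4 not called, with a median log2 fold change of −0.03, with 2 higher and 2 lower after GC correction. Zc3h12a, the nuclease Regnase-1, was at 209.7, 146, 189 and 185 CPM in the LacZ and 116, 76.4, 104 and 108 CPM in the iCre libraries (−0.87 ± 0.07, adjusted p = 3.40e-08), whereas Zfp36, tristetraprolin, was at 25.3, 47.7, 30.2 and 32.6 CPM against 67.0, 72.0, 52.3 and 52.7 CPM (0.85 ± 0.10, adjusted p = 3.44e-06). Its relative Zfp36l1 was lower, at −0.86 ± 0.09 (adjusted p = 4.13e-07) and Zfp36l2 higher by 0.42 ± 0.08 (adjusted p = 4.35e-04). Rc3h2, roquin 2, lost its call with GC correction, at −0.70 ± 0.09 (adjusted p = 4.07e-06, 0.845 after GC correction).

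Genes of the interferon response were mostly lower in iCre fibroblasts. Of 40 interferon regulatory factors, STAT factors and interferon-stimulated genes, 3 were higher, 29 lower and 8 not called, with a median log2 fold change of −0.82. After GC correction there were 1 higher and 31 lower, and without the block 2 higher and 16 lower. Gbp5, a guanylate-binding protein, was at 31.1, 76.7, 72.8 and 89.6 CPM in the LacZ and 7.42, 5.24, 8.14 and 7.81 CPM in the iCre libraries (−3.17 ± 0.19, adjusted p = 3.56e-10), and Gbp2 at 284, 485, 450.3 and 569.9 CPM against 84.5, 78.8, 99.8 and 84.2 CPM (−2.34 ± 0.12, adjusted p = 8.20e-11). Neither gene had overlapping groups.

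Other members varied with the replicate number. The ubiquitin-like modifier Isg15 was at 53.9, 161, 146 and 259.9 CPM in the LacZ and 47.6, 50.8, 88.2 and 115 CPM in the iCre libraries (−0.95 ± 0.15, adjusted p = 5.70e-05, 0.1246 without the block), and the antiviral Mx1 at 1.06, 7.46, 4.73 and 13.9 CPM against 1.12, 0.945, 1.05 and 2.35 CPM (−2.06 ± 0.31, adjusted p = 4.01e-05). In the 4 LacZ libraries, replicate 1 had the lowest value of both genes and of Gbp5 and Gbp2. Irf1, which NF-κB also induces, was at 58.9, 75.9, 64.7 and 66.0 CPM against 52.1, 46.2, 41.4 and 39.3 CPM, without overlap (−0.59 ± 0.09, adjusted p = 4.46e-05), Irf3, a sensor-activated factor, was at 0.35 ± 0.08 (adjusted p = 0.00174, 0.295 after GC correction), and Stat3 was not called (−0.10 ± 0.08, adjusted p = 0.400, 0.0304 after GC correction).

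Genes of the immunoproteasome and of the loading of MHC class I were lower almost throughout. Of 15, 0 were higher, 14 lower and 1 not called, with a median log2 fold change of −0.66, and the GC-corrected counts were the same. The subunit Psmb8 was at 21.3, 39.5, 51.0 and 65.5 CPM in the LacZ and 19.9, 15.9, 23.7 and 23.9 CPM in the iCre libraries (−1.02 ± 0.15, adjusted p = 2.26e-05). Tapbp, tapasin, fell from 572, 531, 506 and 616 CPM to 283, 192, 263 and 248 CPM (−1.20 ± 0.09, adjusted p = 9.56e-09) and the trimming peptidase Erap1 from 124, 109, 128 and 138 CPM to 45.9, 37.9, 39.4 and 47.5 CPM (−1.56 ± 0.07, adjusted p = 2.79e-11), without overlap. The light chain B2m was at −0.77 ± 0.12 (adjusted p = 6.12e-05, 0.0851 after GC correction).

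Among all protein-coding genes at 1 CPM or more in either group, 2404 of 12361 were called in both the main and the GC-corrected fit without overlap between groups. Of these, the 10 with the largest falls were Insrr, Nos2, Glp2r, Acod1, Slc36a2, Cxcl5, Saa3, Gbp4, Vnn3 and Fmo1. Acod1 makes the metabolite itaconate, and it was at 1.89, 9.04, 5.59 and 8.68 CPM in the LacZ and 0.187, 0.236, 0.103 and 0.187 CPM in the iCre libraries (−5.02 ± 0.29, adjusted p = 3.28e-10). The flavin monooxygenase Fmo1 was at 124, 74.5, 110.5 and 92.3 CPM against 13.7, 2.42, 7.07 and 2.46 CPM (−4.24 ± 0.22, adjusted p = 7.69e-11), and the proton-coupled amino acid transporter Slc36a2 at 22.1, 23.5, 13.3 and 18.9 CPM against 1.35, 1.09, 0.172 and 0.508 CPM (−4.76 ± 0.22, adjusted p = 1.72e-11).

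The pantetheinase gene Vnn3 had −4.33 ± 0.24 (adjusted p = 2.10e-10) and the guanylate-binding protein Gbp4 −4.50 ± 0.32 (adjusted p = 4.59e-09). Insrr, a receptor related to that of insulin, was at 0.728, 0.326, 1.96 and 3.07 CPM in LacZ but had 5 counts over the 4 iCre libraries, so that its fitted change of −5.64 ± 0.50 (adjusted p = 6.62e-08) depends on the prior count. The receptor gene Glp2r was at 0.463 to 3.17 CPM in the LacZ and 0.0364 to 0.0803 CPM in the iCre libraries (−5.06 ± 0.41, adjusted p = 1.81e-08).

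Among the 10 largest rises by the same rule were those of Nptx1, Krt18, Cacna1i, Sema7a, Lbhd2, Nxph3, Trim63, Tmem163 and Arc. Several encode proteins known from neurons. Sema7a, a membrane-anchored semaphorin, was at 1.06, 1.09, 0.819 and 1.57 CPM in the LacZ and 29.6, 56.4, 34.6 and 95.1 CPM in the iCre libraries (5.51 ± 0.15, adjusted p = 1.06e-14). Nxph3, a ligand of neurexins, was at 0.596, 2.06, 0.712 and 0.773 CPM against 7.46, 25.2, 10.99 and 9.12 CPM (3.66 ± 0.15, adjusted p = 4.98e-12), and Arc, an immediate-early gene of synapses, at 0.232, 1.66, 0.890 and 1.296 CPM against 12.4, 9.36, 10.9 and 8.35 CPM (3.32 ± 0.29, adjusted p = 5.91e-08).

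The calcium channel gene Cacna1i had 6 counts over the 4 LacZ libraries and was at 1.79, 1.78, 2.08 and 3.72 CPM in the iCre libraries (5.62 ± 0.44, adjusted p = 1.25e-08), and its fitted change depends on the prior count. The ubiquitin ligase Trim63 of muscle atrophy was at 0.0993, 0.0814, 0.214 and 0.1246 CPM in the LacZ and 2.45, 1.35, 2.23 and 0.803 CPM in the iCre libraries (3.61 ± 0.36, adjusted p = 2.61e-07). Tmem163, a zinc transporter, had 3.40 ± 0.30 (adjusted p = 6.05e-08), and Lbhd2 4.09 ± 0.32 (adjusted p = 1.48e-08).

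Of 31 genes of axon guidance and synapses, 18 were higher, 4 lower and 9 not called, with a median log2 fold change of 0.35, with 16 higher and 5 lower after GC correction and 9 higher and 2 lower without the block. Not all followed Sema7a. Sema3c, a secreted semaphorin, was at 467, 272, 357 and 408 CPM in the LacZ and 140.1, 109, 124 and 102 CPM in the iCre libraries (−1.66 ± 0.10, adjusted p = 3.10e-10), and Sema4a was lower, at −1.27 ± 0.21 (adjusted p = 1.34e-04). The coreceptor Nrp2 was at 102, 325, 96.8 and 98.6 CPM against 53.9, 256, 37.5 and 45.5 CPM, with replicate 2 far above the other 3 in both groups (−0.95 ± 0.11, adjusted p = 3.06e-06, 0.518 without the block).

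Of 34 growth factors and their receptors, 11 were higher, 11 lower and 12 not called, with a median log2 fold change of 0.20. After GC correction there were 15 higher and 8 lower, and without the block 3 higher and 6 lower. Tgfb2 was at 100.4, 74.3, 82.2 and 83.6 CPM in the LacZ and 28.8, 12.4, 17.9 and 8.16 CPM in the iCre libraries (−2.47 ± 0.16, adjusted p = 1.03e-09), and Igf1 at 83.1, 32.0, 42.5 and 56.2 CPM against 25.9, 8.93, 11.6 and 20.9 CPM (−1.72 ± 0.09, adjusted p = 8.18e-11). Hbegf, a ligand of the EGF receptor, and Fgf18 went the other way. Hbegf was at 12.9, 6.46, 10.7 and 14.1 CPM against 20.1, 22.7, 23.7 and 53.7 CPM (1.37 ± 0.16, adjusted p = 1.59e-06), and Fgf18 at 1.03, 0.543, 0.890 and 0.723 CPM against 4.08, 2.04, 5.53 and 2.65 CPM (2.09 ± 0.21, adjusted p = 3.91e-07). Vegfa was lower, at −0.47 ± 0.08 (adjusted p = 1.53e-04, 0.109 without the block) and Hgf higher by 0.24 ± 0.07 (adjusted p = 0.0189, 0.230 without the block, call lost without replicate 3), both with overlapping groups.

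Part of the DNA replication genes were higher. Of 29 replication and mitosis genes, 11 were higher, 1 lower and 17 not called, with a median log2 fold change of 0.19, and without the block 4 higher and 0 lower. Without replicate 4, 7 were higher and 2 lower. Mcm2, a subunit of the replicative helicase, was at 9.07, 8.31, 8.65 and 10.6 CPM in the LacZ and 15.5, 18.8, 14.4 and 28.2 CPM in the iCre libraries (1.02 ± 0.12, adjusted p = 2.09e-06), and Mcm6 at 15.2, 27.2, 20.0 and 24.8 CPM against 35.9, 45.5, 41.8 and 62.4 CPM (1.08 ± 0.10, adjusted p = 6.82e-08). Neither subunit had overlapping groups. The mitotic markers Mki67 (0.39 ± 0.16, adjusted p = 0.0702, 0.0299 after GC correction, call gained without replicate 1 or 3) and Top2a (0.16 ± 0.11, adjusted p = 0.365, 0.00566 after GC correction) were not called, and Ccnb1 had −0.41 ± 0.15 (adjusted p = 0.0473, 0.625 without the block, 0.523 after GC correction, call lost without replicate 2 or 3).

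The enzymes of cholesterol and fatty acid synthesis were lower almost throughout. Of 22 genes, 0 were higher, 21 lower and 1 not called, with a median log2 fold change of −1.19, and after GC correction there were 0 higher and 22 lower. Idi1, which makes dimethylallyl pyrophosphate, was at 39.7, 23.6, 18.7 and 24.9 CPM in the LacZ and 5.29, 2.73, 4.33 and 4.52 CPM in the iCre libraries (−2.66 ± 0.14, adjusted p = 8.87e-11). Hmgcs1, the synthase that makes HMG-CoA, was at 448, 271, 238 and 295 CPM against 104.7, 60.4, 90.1 and 89.6 CPM (−1.86 ± 0.11, adjusted p = 3.10e-10). Neither gene had overlapping groups. In all 4 pairs of each, the iCre library was the lower one.

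**Figure D3:**
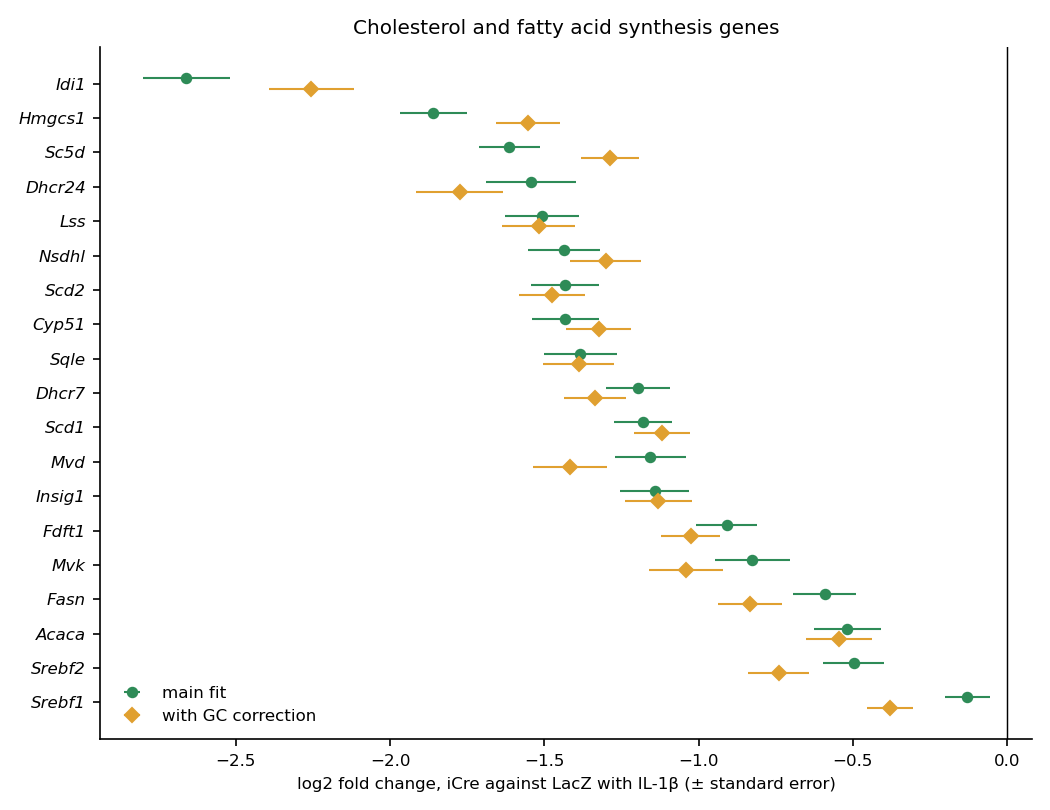
Log2 fold change of iCre over LacZ fibroblasts with IL-1β (horizontal axis, with standard errors) for 19 of the 22 genes of cholesterol and fatty acid synthesis, in the fit with the replicate block and in the fit that also corrects for GC content. All but 1 of those plotted were called lower in the former and all 19 in the latter, with Idi1 at −2.66 and −2.26.

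Of 21 genes of glycolysis and the hypoxia response, 2 were higher, 13 lower and 6 not called, with a median log2 fold change of −0.38, with 1 higher and 16 lower after GC correction and 1 higher and 7 lower without the block. The transcription factor Hif1a was at 860.0, 639.5, 604 and 774 CPM in the LacZ and 261, 261, 241 and 355 CPM in the iCre libraries (−1.38 ± 0.09, adjusted p = 2.40e-09). Pfkfb3, which drives glycolytic flux, was at 175, 148, 167 and 164 CPM against 48.4, 56.3, 46.4 and 56.6 CPM (−1.67 ± 0.09, adjusted p = 7.80e-11), and the peptide hormone gene Adm at 323, 231, 160.5 and 182 CPM against 96.6, 147, 58.6 and 36.8 CPM (−1.55 ± 0.16, adjusted p = 5.77e-07). The platelet isoform of phosphofructokinase, Pfkp, was higher (0.57 ± 0.08, adjusted p = 2.33e-05), and Ldha, with overlapping groups, was lower (−0.59 ± 0.08, adjusted p = 2.10e-05, 0.0852 without the block).

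Of 25 genes of protein folding in the endoplasmic reticulum and of the integrated stress response, 0 were higher, 11 lower and 14 not called, with a median log2 fold change of −0.27, and without the block 0 higher and 2 lower. Without replicate 1 or without replicate 2, 3 were higher. The chaperone Hspa5 was not called (−0.16 ± 0.08, adjusted p = 0.146), nor were Atf4 (−0.27 ± 0.10, adjusted p = 0.0576, 0.00225 after GC correction, call gained without replicate 4) and Ddit3 (0.25 ± 0.10, adjusted p = 0.0653, 0.00538 after GC correction, call gained without replicate 2). The cystine transporter Slc7a11 was lower, at −1.16 ± 0.15 (adjusted p = 7.95e-06, 0.112 without the block), with overlapping groups.

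More matrix genes were called lower than higher. Of 36 collagens and matricellular genes, 10 were higher, 20 lower and 6 not called, with a median log2 fold change of −0.46, with 8 higher and 20 lower after GC correction and 4 higher and 8 lower without the block. In CTRL the same genes had 4 higher and 23 lower calls, beside 6.79% higher and 7.70% lower over all genes. The difference of effects between IL-1β and CTRL was called as 11 higher and 6 lower, and after GC correction as 7 higher and 6 lower. Without replicate 3 these counts were 4 and 5, without replicate 4 they were 7 and 5, and without the block 0 and 1. Col1a1 was at 12655, 6875, 8426 and 8316 CPM in the LacZ and 5886, 3506, 4997 and 4516 CPM in the iCre libraries (−0.94 ± 0.09, adjusted p = 1.73e-07), and Col3a1 at 33873, 15354, 20936 and 23142 CPM against 14911, 8681, 8958 and 7002 CPM (−1.25 ± 0.12, adjusted p = 1.10e-07). The crosslinking enzymes Lox (−1.69 ± 0.12, adjusted p = 5.13e-09) and Loxl2 (−1.91 ± 0.11, adjusted p = 4.15e-10) were lower without overlap, and periostin, Postn, with overlap (−1.62 ± 0.13, adjusted p = 2.82e-08, 0.0770 without the block).

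Other matrix genes were higher. Col6a3 was at 103, 213, 124 and 78.7 CPM in the LacZ and 335, 532, 332 and 301 CPM in the iCre libraries (1.58 ± 0.09, adjusted p = 4.20e-10), and thrombospondin 1, Thbs1, at 709, 1198, 563 and 730.5 CPM against 1359, 3426, 1632 and 2211 CPM (1.38 ± 0.10, adjusted p = 8.77e-09). In both, replicate 2 was the highest library of both groups.

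Of 13 contractile genes of myofibroblasts, 4 were higher, 0 lower and 9 not called, with a median log2 fold change of 0.37, and without the block 2 higher and 0 lower. Smooth muscle actin, Acta2, at 504.5, 371, 276 and 203 CPM in the LacZ and 323, 201, 331 and 263 CPM in the iCre libraries, was not called (−0.24 ± 0.15, adjusted p = 0.307, call gained without replicate 4), nor was Tagln (0.20 ± 0.14, adjusted p = 0.356, call gained without replicate 1). Tropomyosin 2, Tpm2, was higher by 0.75 ± 0.09 (adjusted p = 4.35e-06) and smoothelin, Smtn, by 0.79 ± 0.08 (adjusted p = 6.51e-07).

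Of 29 genes of cell death and survival, 5 were higher, 8 lower and 16 not called, with a median log2 fold change of −0.12, with 4 higher and 8 lower after GC correction, 3 higher and 7 lower without the block, and without replicate 3 only 2 were higher. The death receptor Fas was at 179, 132, 153 and 162 CPM in the LacZ and 73.6, 38.2, 56.8 and 64.7 CPM in the iCre libraries (−1.47 ± 0.09, adjusted p = 3.56e-10), and the inhibitors of apoptosis Birc2 and Birc3 were lower, at −1.06 ± 0.08 (adjusted p = 7.49e-09) and −0.81 ± 0.07 (adjusted p = 9.66e-08). Bcl2l1, which encodes the survival protein BCL-XL, was higher (0.69 ± 0.08, adjusted p = 1.18e-06). The caspase 8 inhibitor Cflar (−0.12 ± 0.08, adjusted p = 0.353) and Ripk1 (−0.13 ± 0.07, adjusted p = 0.252) were not called. Of 16 p53 targets, 4 were higher, 5 lower and 7 not called, with a median log2 fold change of 0.04, with 2 higher and 4 lower after GC correction. Cdkn1a (p21) was at 0.21 ± 0.08 (adjusted p = 0.0480, 0.277 without the block, 0.828 after GC correction, call lost without replicate 1, 2 or 3).

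The libraries carried a fibroblast profile. Summed over 21 genes of fibroblast identity, the level was 7526 to 9371 CPM in the LacZ and 8317 to 12486 CPM in the iCre libraries, and of these genes 5 were higher, 7 lower and 9 not called, with a median log2 fold change of −0.14. Without the block, there were 2 higher and 2 lower. Pdgfra was at 1669 to 2483 CPM in the LacZ and 1213 to 2315 CPM in the iCre libraries (−0.26 ± 0.08, adjusted p = 0.0228, 0.498 without the block, call lost without replicate 3 or 4). The transcription factor Tcf21 was lower, at −0.67 ± 0.12 (adjusted p = 2.46e-04, 0.530 without the block) with overlapping groups, and Tbx20 by −2.04 ± 0.12 (adjusted p = 4.58e-10) without overlap.

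Markers of endothelial cells, cardiomyocytes and epithelial and mesothelial cells were sparse, while those of leukocytes and of pericytes were at higher levels. In LacZ and iCre fibroblasts, the summed level of 5 endothelial markers was 6.85 to 9.57 and 7.41 to 11.9 CPM (1 of 5 called, Cdh5, higher, and none without the block, without replicate 3 or without replicate 4), and that of 8 leukocyte markers tested, of 10, 47.7 to 160.3 and 34.0 to 109 CPM (1 higher and 5 lower, 3 lower after GC correction and without replicate 3 or 4, 0 higher without replicate 2, and 0 of either without the block). Most of the latter was Lyz2, at 33.4 to 129.8 and 20.4 to 85.7 CPM. The 3 cardiomyocyte markers tested of 5 summed to 0.570 to 1.85 and 2.24 to 16.2 CPM, with the defining Myh6 and Nppa not among the genes tested. Of the 3, Tnnt2 was called higher (2.90 ± 0.20, adjusted p = 3.70e-09), at 14.1, 1.93, 15.8 and 2.70 CPM in the iCre libraries, and so was 1 other, which lost its call without the block, after GC correction, with RLE factors or DESeq2, and without replicate 1, 3 or 4.

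The 5 pericyte and smooth muscle markers summed to 256 to 772 CPM in the LacZ and 399 to 949 CPM in the iCre libraries (3 of 5 called higher, and 2 without the block). Most of it was Rgs5 (0.29 ± 0.10, adjusted p = 0.0419, 0.719 without the block, call lost without replicate 1, 2 or 3), whose call was also lost with RLE factors or DESeq2. Cspg4, which encodes NG2, was higher without overlap (2.22 ± 0.17, adjusted p = 8.59e-09). The 5 epithelial and mesothelial markers summed to 1.39 to 2.66 and 3.81 to 8.65 CPM (4 of 5 called higher, 2 without replicate 3 and 1 without the block). Among them, Krt18 had 5 counts over the 4 LacZ libraries and was at 1.36, 2.64, 1.65 and 2.06 CPM in the iCre libraries. The part of other cells in the results was not tested, and in bulk RNA fewer cells of a type and less RNA per cell cannot be told apart.

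GC content of the transcript and the size of the change went together. A slope of expression (log2 CPM) against GC content of each gene's longest transcript was computed for each library over 12298 protein-coding genes. It was −0.13, −0.09, −0.07 and −0.10 per 10% GC in the 4 LacZ libraries and 0.30, 0.21, 0.30 and 0.23 in the 4 iCre libraries. The groups did not overlap, and the difference of the means was 0.36 per 10% GC (p = 0.0286 in an exact permutation test, two-sided, the smallest p that the 70 assignments of 4 against 4 allow). An exact permutation test over the 16 exchanges within the 4 replicate pairs gave p = 0.13, the smallest that they allow. Over all 40 libraries, the 12 iCre libraries with IL-1β, TNFα or TGFβ lay between 0.18 and 0.30, and the other 28, which include iCre fibroblasts in CTRL and with bFGF, between −0.22 and −0.0014.

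Genes of low GC content were mostly called lower, and the share called higher grew with GC content. In the lowest of 5 equal groups by GC content (31.0% to 43.8%), 4.96% were called higher and 63.4% lower, with a median log2 fold change of −0.42. In the highest group (55.5% to 74.2%), 47.6% were called higher and 10.2% lower, with a median of 0.25. After correction, 18.1% to 20.6% of each of these groups were called lower, and the share called higher ran from 18.01% to 25.98%. Of the 3684 genes called higher, 2188 (59.4%) were so in the corrected fit too, and of the 3754 called lower 2237 (59.6%), while 96 of the latter were called higher there. By their library names, the 12 libraries with a slope above 0 carry the sample numbers 29 to 40 and the other 28 the numbers 1 to 28, which take in all LacZ libraries and the iCre libraries in CTRL and with bFGF. The slope thus changed sign at 1 point of the numbering, and any order of processing that these numbers stand for cannot be told apart from the groups.

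**Figure D4:**
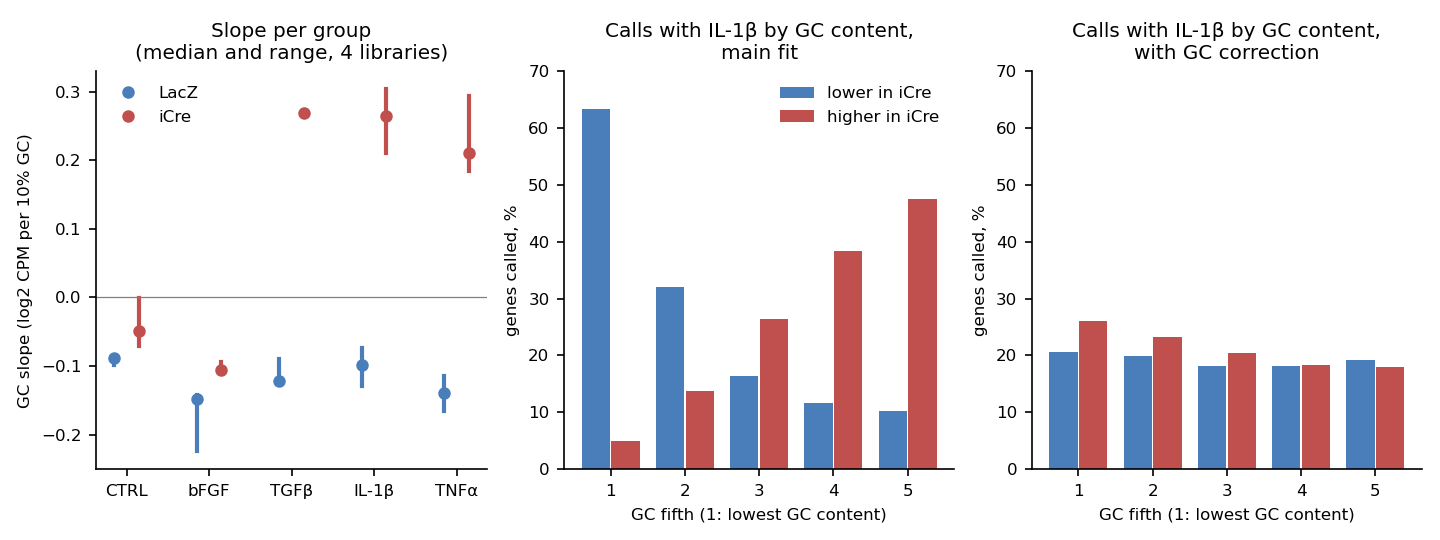
Left, slope of log2 CPM on transcript GC content (per 10% GC) in the 10 groups of the series, as the median and range of 4 libraries each, and, middle and right, the share of genes called lower or higher with IL-1β in 5 equal groups of rising GC content, before and after GC correction. The iCre groups with TGFβ, IL-1β and TNFα have slopes above 0, and the share called lower falls from 63.4% in the lowest to 10.2% in the highest group before correction.

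The effect of TAK1 deletion with IL-1β was then compared with that in CTRL, as an interaction over the 16 libraries of both treatments. It was more positive with IL-1β for 1992 genes (7.90%) and more negative for 2263 (8.98%). The fit that corrects for GC content gave 1420 and 1613 genes. Without replicate 3, these counts were 1125 and 1619, without replicate 4 they were 1212 and 1750.0, and without the block 696 and 1247. The 7 neutrophil-attracting chemokines held 0 higher and 4 lower called differences (0 higher and 2 lower without the block), the 22 acute-phase, complement and adhesion genes 1 higher and 14 lower (0 higher and 6 lower), the 20 genes around nitric oxide 2 higher and 11 lower (1 higher and 4 lower) and the 22 cholesterol genes 0 higher and 11 lower (0 higher and 9 lower). Of the 11 NF-κB and IKK genes, the difference was 1 higher and 9 lower, without replicate 3 it was 1 higher and 4 lower, without replicate 4 1 higher and 5 lower, and without the block 1 higher and 3 lower. Of the cholesterol genes, 0 higher and 15 lower were called in CTRL itself, where 1713 (6.79%) of all genes were higher and 1942 (7.70%) lower.

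Map3k7 itself had a log2 fold change between iCre and LacZ of −0.28 in CTRL, against −0.81 with IL-1β. The difference of −0.54 was called, and it was −0.43 after GC correction and −0.54 without the block. Whether this bears on the differences of other genes was not tested. Cxcl1 had a log2 fold change between iCre and LacZ of −1.19 ± 0.17 (adjusted p = 1.39e-04) in CTRL, and the difference of both effects was −2.49 ± 0.32 (adjusted p = 2.26e-05). Ccl2 had 0.78 ± 0.10 (adjusted p = 3.77e-05) in CTRL, the opposite direction to that with IL-1β, with a difference of −2.67 ± 0.37 (adjusted p = 4.79e-05). Mmp13 was likewise higher in iCre fibroblasts in CTRL (1.18 ± 0.30, adjusted p = 0.0130), with a difference of −2.94 ± 0.47 (adjusted p = 2.00e-04). For Nos2 the difference was −3.88 ± 1.42 (adjusted p = 0.0702, call gained without replicate 2) and was not called. The CTRL libraries held at most 0.220 CPM of it.

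The genes higher in iCre fibroblasts were in part higher without ligand too. Nptx1 was at 5.80 ± 5.46 CPM in the LacZ and 84.4 ± 53.8 CPM in the iCre libraries in CTRL (mean ± SD, n = 4), a log2 fold change of 3.94 ± 0.17 (adjusted p = 2.41e-09), and the difference was 3.14 ± 0.43 (adjusted p = 4.31e-05). Sema7a had 2.76 ± 0.19 (adjusted p = 1.13e-07) in CTRL and a difference of 2.81 ± 0.38 (adjusted p = 3.98e-05). For both, the rise was larger with IL-1β than in CTRL. Of the 31 genes of axon guidance and synapses, 15 higher and 1 lower were called in CTRL, beside 6.79% and 7.70% of all genes. The difference of effects was called as 5 higher and 3 lower, and without the block as 2 higher and 2 lower.

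For genes of replication, the effect of deletion with IL-1β was more positive than in CTRL where the difference was called. Of the 29 genes, 1 higher and 17 lower in iCre fibroblasts were called in CTRL, beside the 6.79% and 7.70% of all genes, and the difference of effects was called as 21 higher and 0 lower. Without replicate 4 there were 7 higher and 0 lower, and without the block 1 higher and 0 lower.

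Compared with TNFα, another ligand that acts through TAK1, the effect of deletion was more positive with IL-1β for 1500 genes (5.95%) and more negative for 1199 (4.76%). These counts depended on single replicates, with 389 and 294 genes without replicate 3, 663 and 541 without replicate 4, and 184 and 158 without the block. Both interactions use the same IL-1β libraries. With TNFα itself, 4321 (17.1%) of all genes were called higher and 3800.0 (15.1%) lower in iCre fibroblasts. Lcn2 was not called with TNFα (−0.10 ± 0.14, adjusted p = 0.677), and the difference was −2.81 ± 0.47 (adjusted p = 0.00147). Il6 was not called with TNFα either (−0.38 ± 0.19, adjusted p = 0.188), with a difference of −2.19 ± 0.40 (adjusted p = 0.00245, 0.0792 without the block).

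Csf3 was barely detected with TNFα, at 0 to 0.0348 CPM in LacZ and, apart from 1 iCre library at 2.33 CPM, near 0 in iCre fibroblasts, so that no change with TNFα is given for it. Ptges2, by contrast, was higher in iCre fibroblasts with TNFα, by 0.54 ± 0.09 (adjusted p = 0.00239), and the difference was −1.41 ± 0.12 (adjusted p = 1.31e-05). Ptgs2 was higher with TNFα by 1.87 ± 0.26 (adjusted p = 7.26e-04), with a difference of −1.73 ± 0.50 (adjusted p = 0.0349, 0.388 without the block, call lost without replicate 3 or 4), and Timp1 by 1.04 ± 0.14 (adjusted p = 7.27e-04), with a difference of −1.73 ± 0.31 (adjusted p = 0.00244, 0.103 without the block). Ptges2 and Timp1 were thus called in opposite directions with both ligands, whereas Ptgs2 was not called with IL-1β.

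Of the 29 replication genes, 28 higher and 0 lower were called with TNFα, beside 17.1% and 15.1% of all genes, and the difference of effects was 0 higher and 22 lower. Without replicate 3 there were 0 higher and 8 lower, and without the block 0 higher and 0 lower.

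Some genes of other groups had a more negative effect with TNFα than with IL-1β. The difference was called as 15 higher and 0 lower of 40 interferon-related genes, 11 higher and 0 lower of 15 immunoproteasome and MHC class I genes and 11 higher and 1 lower of 22 acute-phase, complement and adhesion genes. Without replicate 3 these were 3 higher and 0 lower, 5 higher and 0 lower and 7 higher and 1 lower, without replicate 4 they were 7 higher and 0 lower, 7 higher and 0 lower and 7 higher and 1 lower, and without replicate 1 the interferon-related genes were 30 higher and 0 lower. Without the block, the counts of these groups were 4 higher and 0 lower, 5 higher and 0 lower and 2 higher and 1 lower. Gbp5 had −6.09 ± 0.54 (adjusted p = 1.02e-04) with TNFα and a difference of 2.56 ± 0.62 (adjusted p = 0.0137, 0.0658 without the block, call lost without replicate 3 or 4). Saa3 had −6.52 ± 0.29 (adjusted p = 8.61e-06) with TNFα and a difference of 2.04 ± 0.43 (adjusted p = 0.00597, 0.0896 without the block).

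The 22 cholesterol genes were called as 0 higher and 5 lower with TNFα, beside the 15.1% of all genes lower. The difference of effects was called as 0 higher and 2 lower, with 0 higher and 0 lower without the block, 0 higher and 7 lower without replicate 2 and 0 higher and 1 lower without replicate 3 or 4. The difference between both ligands was not called for Nos2 (1.68 ± 0.80, adjusted p = 0.215, call gained without replicate 2), Nptx1 (−1.12 ± 0.37, adjusted p = 0.0696, call gained without replicate 1 or 2) and Cxcl5 (0.18 ± 0.35, adjusted p = 0.850).

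**Figure D5:**
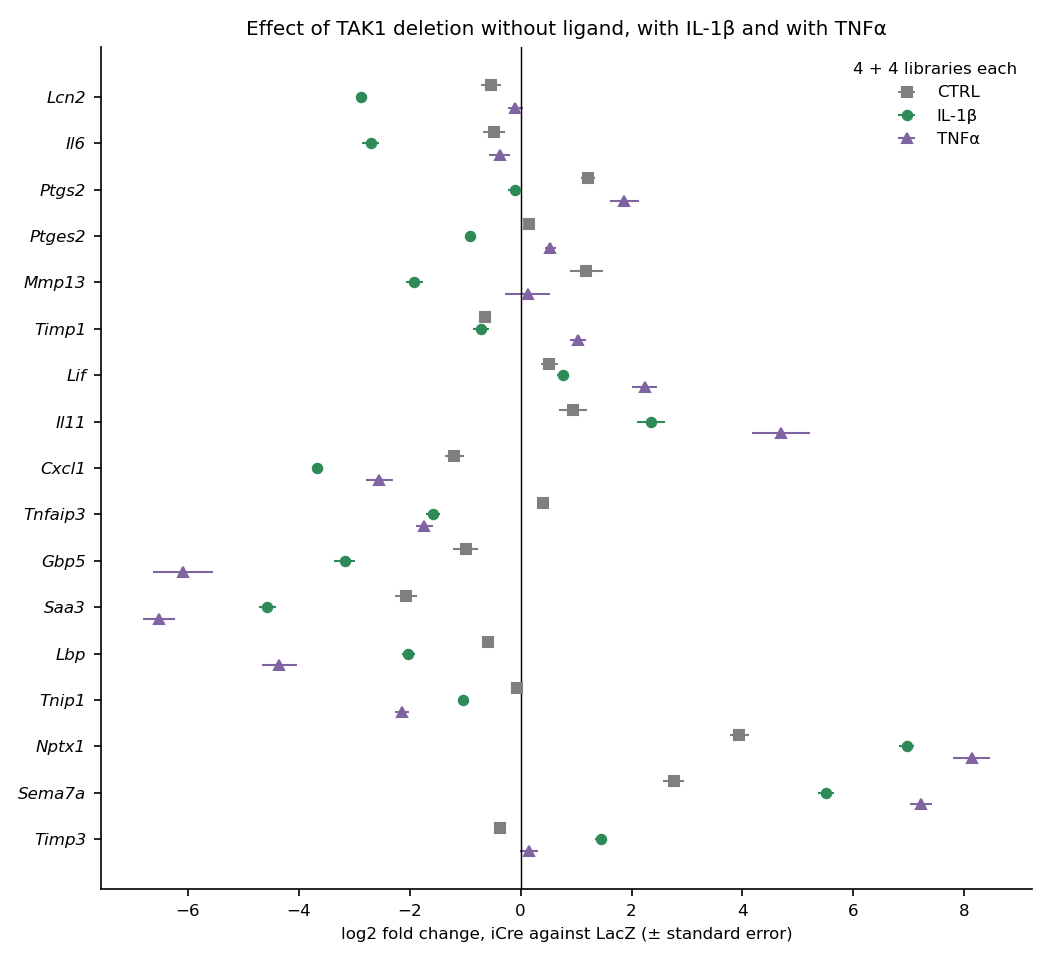
Log2 fold change of iCre over LacZ fibroblasts (horizontal axis, with standard errors) in CTRL (grey squares), with IL-1β (green circles) and with TNFα (purple triangles), 4 and 4 libraries each, for 17 genes picked after their values were seen. Ptges2 lies at −0.92 with IL-1β and on the other side of 0 with TNFα, whereas Nptx1 and Sema7a lie above 0 in all 3 conditions.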

How the data were processed

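Polyadenylated RNA of 40 libraries was sequenced with single-end reads. The authors aligned the reads to the mouse genome mm10 with STAR and made the deposited table of raw counts per gene with HTSeq (version 0.10.0, per the labels). The strand setting of the counting is not given in the sources used here, so reads of a gene and of an antisense partner cannot be told apart, and multigene families may share reads. All 40 columns of counts were matched to samples by their labels. Library totals of the 8 libraries ran from 28888257 to 55947432 counts.

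Genes with at least 10 counts over the 40 libraries were tested in edgeR (4.0.16, R 4.3.3) by its quasi-likelihood method on the 8 libraries, with TMM factors, the replicate number as a block and Benjamini-Hochberg adjustment over all 25210 genes, at 0.05. Interactions with CTRL and with TNFα used 16 libraries each. The numbers pair the libraries: the correlation of deviations from the group mean was 0.51 to 0.82 for the 4 same-numbered pairs and −0.52 to 0.16 for the 12 others, over 0.1 in 4 and 2 of them. GC content was that of the longest transcript in GENCODE M21, on GRCm38, and the correction subtracts in each library a spline of 6 degrees of freedom on GC content. Of the 55414 identifiers, 52133 are in that release. CPM levels use TMM factors over all 40 libraries, and the GC slope uses log2 of CPM plus 1. Promoters are from RefSeq. The scripts were tested on simulated data.

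The comparison and the 33 gene lists (600 genes, 592 tested) were chosen with earlier results of these data known. Named genes are Map3k7, Nos2 and Nptx1, fixed members of each list, up to 3 largest rises and falls per list, and the 10 largest rises and falls over protein-coding genes that were called with and without GC correction and had no overlap, all at 1 CPM or more except fixed members (228 genes in all, of which the text names part, and some are not reported here). Alternatives were no block, GC correction, DESeq2 (1.42.0), RLE factors, other filters, protein-coding genes only, all 40 libraries in 1 fit, a fold threshold and leaving out each replicate number.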

Additional observations from a re-analysis of the deposited data

Results flagged for a closer look

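Within the groups of 4 libraries of the 161 named genes, 1 library stood far from the other 3 by Dixon's test in 19 of 322 groups, of which chance gives about 1 in 20. Replicate 2 accounted for most of them, in LacZ fibroblasts with Il1rl1 at 238 CPM, Nrp2 at 325, Nxph3 at 2.06, Chuk at 81.1, Slc7a2 at 793 and Pdgfra at 2483 CPM, and in iCre fibroblasts Il1rl1 at 879, Nrp2 at 256, Col6a3 at 532 and Jun at 220 CPM. Il1rl1 and Nrp2 were thus set apart in the same replicate of both groups. Replicate 4 stood apart in iCre fibroblasts for Tab1 at 20.4, Mx1 at 2.35, Cacna1i at 3.72, Hbegf at 53.7 and Slc7a11 at 70.1 CPM, and in LacZ fibroblasts for Ddit3 at 44.2 CPM. Replicate 1 stood apart in LacZ fibroblasts for Mapk14 at 61.4 and Cxcl12 at 5324 CPM and in iCre fibroblasts for Hgf at 204 CPM.

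By the interaction test of edgeR, the log2 effect of deletion with IL-1β minus that in CTRL was 3.14 for Nptx1, 2.81 for Sema7a, −2.49 for Cxcl1, −2.67 for Ccl2 and −2.94 for Mmp13. The effect with IL-1β minus that with TNFα was −2.19 for Il6, −2.81 for Lcn2, −1.41 for Ptges2, −1.73 for Ptgs2, −1.73 for Timp1, 2.04 for Saa3 and 2.56 for Gbp5. These are all among the differences whose adjusted p was at most 0.05, and the causes were not tested.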

How the results depend on the processing

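For TAK1 deletion with IL-1β, the counts of genes higher and lower (3684 and 3754, together 7438) fell to 1799 and 2265 (4064) without the replicate block and to 1201 and 1178 (2379) with GC correction and no block, and 700 and 1032 (1732) had a log2 fold change of 1 or more in size. Leaving out 1 replicate number gave 2510.0 to 3561 higher, 3009 to 3510.0 lower and 5519 to 7071 in all. RLE factors, DESeq2, the other filters, protein-coding genes only, all 40 libraries in 1 fit and GC correction with the block kept each count within 1.5 times the main count. For the interaction with CTRL (1992 and 2263), there were 696 and 1247 (1943) without the block. GC correction with the block gave 1420 and 1613 (3033) there. With 1 replicate left out, there were 1125 to 1566 and 1619 to 2102 (2744 to 3634). For that with TNFα (1500.0 and 1199), there were 184 and 158 (342) without the block, 2057 lower with DESeq2, and 389 to 1840.0 and 294 to 1772 (683 to 3612) with 1 replicate left out. The GC slope difference was 0.34 to 0.38 with 1 replicate left out, where the exact permutation test over 20 assignments cannot go below p = 0.1. It was 0.36 with exchanges within the replicate pairs (the replicate block), an alternative chosen after seeing the data, where p cannot go below 0.13.

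Of the 161 named genes, no setting reversed a direction that was called in either fit, except GC correction, for Il1rap (0.067, and 0.051 without the block) and Ptgs2 (0.46). GC correction with the block cost 13 genes besides Il1rap their call, leaving out the block 30, both together 46 besides Il1rap, and DESeq2 4. The causes were not tested. At these depths a gene with fewer than 10 counts per group, such as Insrr, Cacna1i and Krt18, has a fold change that depends on the prior count.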
